A study of Mus musculus with 24 samples.

Results

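The collagen chain genes of the mouse thoracic aorta were taken as every gene of the count table whose symbol is Col, a number, the letter a and a number. This gave 43 of 25941 genes, of which 11 code for fibrillar chains, 9 for chains of basement membranes and 23 for other collagens. Of these, 37 had enough reads to be tested (9 fibrillar, 9 basement membrane and 19 other). The untested members were Col2a1, Col24a1, Col9a1, Col9a2, Col17a1 and Col25a1, none with more than 14 reads in any library. Col26a1, listed in the table as Emid2, is not matched by this rule and had at most 4 reads in a library.

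Collagens are triple helices wound from chains in which glycine returns at a fixed short interval. Fibrillar collagens I, III and V give the arterial wall its tensile strength, while type IV networks and the multiplexins XV and XVIII belong to the basement membranes that surround each smooth muscle cell and underlie the endothelium. Type VI filaments link the fibrils and the basement membrane, and FACIT collagens (fibril-associated collagens with interrupted helices) coat fibril surfaces.

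Celecoxib and rofecoxib inhibit cyclooxygenase-2, the inducible enzyme of prostaglandin synthesis. The mice were wild-type C57BL/6 males aged 10 to 12 weeks that ate, for 3 weeks, chow with celecoxib at 100 mg/kg/day, chow with rofecoxib at 50 mg/kg/day, or chow with no drug (control). All 3 groups received interleukin-1β at 10 µg/kg into the peritoneum 4 h before collection at zeitgeber time 11, so controls carried the cytokine too and no untreated aorta was compared. Poly(A) RNA was sequenced from 8 biological replicates per group, 24 libraries in all, with 21668798 to 21700121 counted reads each.

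The libraries were rich in smooth muscle transcripts: the 8 smooth muscle markers summed to 30611 to 43148 CPM with celecoxib, 26649 to 40230.1 with rofecoxib and 27214 to 37233 in controls. The 6 mesothelial markers summed to at most 8.48 CPM and the 5 epidermal ones to at most 2.08 CPM in any library. Markers of fat surrounding the vessel were present at varying levels, the 8 white adipocyte markers at 351 to 1298 CPM with celecoxib, 526 to 3071 with rofecoxib and 419 to 2284 in controls. Levels are given as CPM, the reads of a gene scaled to the size of its library after TMM normalization. Rofecoxib replicate 5 stood apart in its Schwann cell markers, which summed to 738 CPM, and values without it are also given for Col28a1, Col11a1 and Col5a3. In whole tissue, fewer cells of a type and less RNA per cell cannot be told apart.

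Fibrillar genes are rich in exons of 1 length. In the 11 fibrillar genes 42.9% to 56.9% of the inner coding exons are exactly 54 bases long, which is 18 codons, against 2.22% to 5.88% in the 6 type IV genes. The FACIT genes ranged from 6.35% to 46.7%, so that Col9a2, Col9a3 and Col22a1 fell within the fibrillar range. One 54-base coding exon from each of 4 abundant members with 6 glycine codons is shown to make the repeat visible (GENCODE annotation, GRCm38). The capitals mark every glycine codon, GGN in the reading frame.
Col1a2: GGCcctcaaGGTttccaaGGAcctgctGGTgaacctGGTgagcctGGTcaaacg
Col3a1: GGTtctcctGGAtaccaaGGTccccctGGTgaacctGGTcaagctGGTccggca
Col4a1: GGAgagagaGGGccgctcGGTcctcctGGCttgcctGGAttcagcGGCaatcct
Col18a1: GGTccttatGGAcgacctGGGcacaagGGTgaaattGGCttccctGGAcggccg
The Col1a2 exon lies at chr6:4515481-4515534, plus strand, the Col3a1 exon at chr1:45325805-45325858, plus strand, the Col4a1 exon at chr8:11245211-11245264, minus strand and the Col18a1 exon at chr10:77067379-77067432, minus strand. In each the glycine codons are evenly spaced among 18. Not every exon of this length carries the repeat: exons 4 and 11 of Col18a1 and exon 6 of Col1a2 hold 3 glycine codons each.

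The aortic collagen transcripts were dominated by a few members. The 6 most counted genes made up 71.3% of all collagen reads, and the 14 members above 40 CPM per kb of transcript held 97.0%. Per kb of transcript, the highest was Col18a1, the source of endostatin, at 618 CPM per kb averaged over all libraries, followed by Col1a2 at 428, Col3a1 at 318, Col4a1 at 309.8 and Col4a2 at 242. The type VI chains Col6a2 and Col6a1 stood at 214 and 199 CPM per kb, and Col1a1, the partner of Col1a2 in type I collagen, at 153. Basement membrane genes took 49.4% of collagen reads, fibrillar genes 36.3% and the others 14.3%. At the low end, 18 of the 43 members were under 1 CPM per kb, among them the cartilage fibril genes Col2a1 at 0.0559 and Col11a1 at 0.0948 CPM per kb. One transcript length was used per gene, so levels of genes with several isoforms, such as Col18a1, depend on the transcript chosen.

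**Figure D1:**
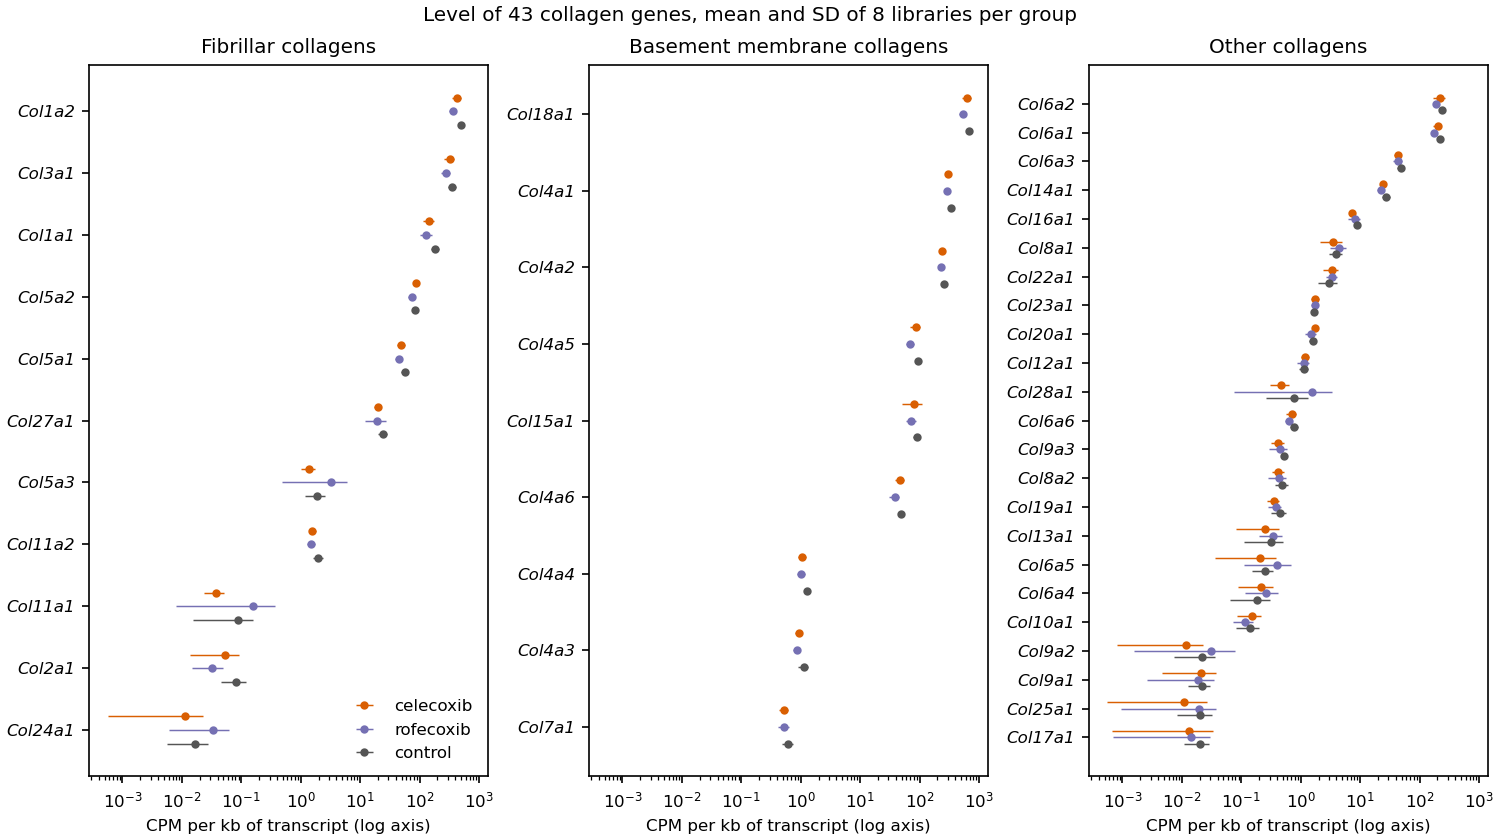
Mean level of each of the 43 collagen genes in CPM per kb of transcript (log axis) with celecoxib, rofecoxib and control diet; points are means and bars the SD of 8 libraries, with the lower bar shortened where it would reach 0. The members span from 0.0158 CPM per kb for Col17a1 to 618 for Col18a1 over all libraries.

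Summed over all 43 members, collagen genes held 1.68% ± 0.178 of reads in celecoxib aortas, 1.53% ± 0.134 in rofecoxib aortas and 1.84% ± 0.134 in controls (SD, n = 8 each). The summed level was 14286 to 21350.04 CPM with celecoxib (median 16477), 13676 to 17292 with rofecoxib (median 14335) and 16177 to 22007 in controls (median 18753). Rofecoxib libraries lay low, with 6 of 8 below every control, and celecoxib libraries overlapped with both other groups. These sums describe the members and were not tested.

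The group means ranked rofecoxib, celecoxib, control from lowest to highest in each of the 3 classes. Fibrillar genes summed to 5298 to 8341 CPM with celecoxib (median 5794), 4549 to 6599 with rofecoxib (median 5092) and 5712 to 8469 in controls (median 6788). Basement membrane genes summed to 6541 to 10027 CPM with celecoxib (median 8463), 6844 to 8722 with rofecoxib (median 7230.1) and 8060.4 to 10512 in controls (median 9356). The mean fibrillar sum was 88% of the control mean with celecoxib and 76.4% with rofecoxib, and the basement membrane sum 90.8% and 80.6%. The other collagens, led by type VI, summed to 1943 to 2982 CPM with celecoxib (median 2418), 2023 to 2591 with rofecoxib (median 2102) and 2327 to 3027 in controls (median 2610.3), which is 91.8% of the control mean with celecoxib and 83.6% with rofecoxib. All of these ranges overlapped between each drug group and control.

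**Figure D2:**
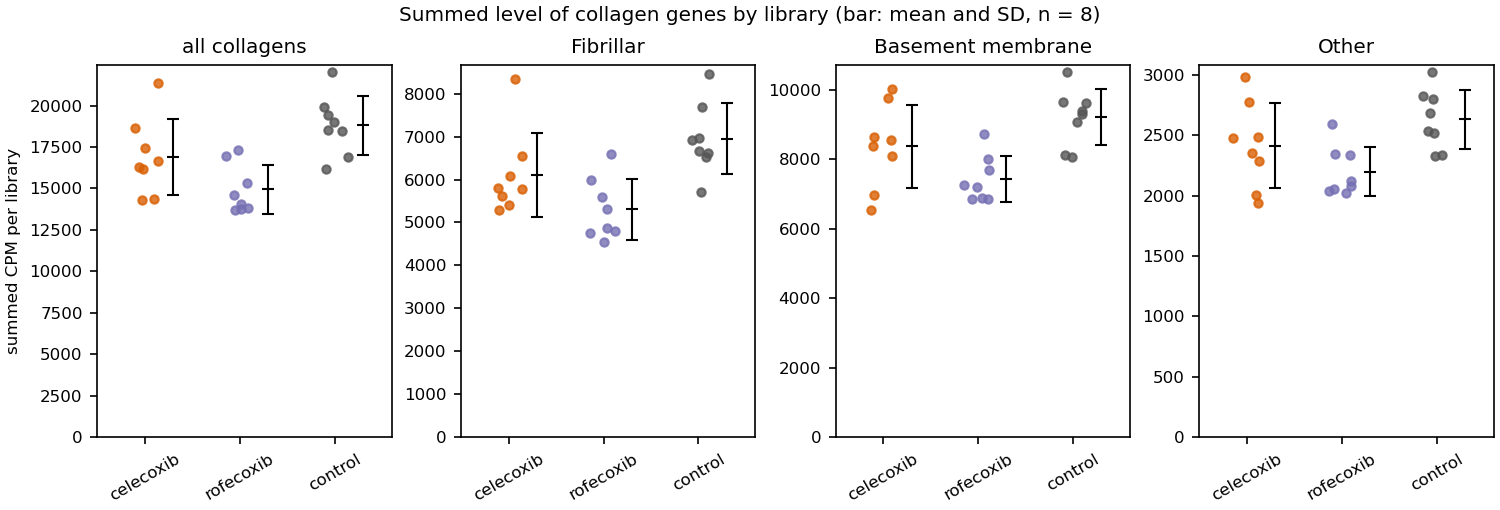
Summed CPM of all 43 collagen genes and of the fibrillar (11), basement membrane (9) and other (23) members, 1 point per library in celecoxib, rofecoxib and control aortas, with the mean and SD of 8 libraries. Rofecoxib libraries average 14940.5 CPM over all members and controls 18798.6, with overlapping ranges.

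The comparison of rofecoxib with control asked which collagen transcripts a cyclooxygenase-2 inhibitor diet altered. Rofecoxib aortas had less mRNA of type I collagen, of the type IV chains Col4a3, Col4a5 and Col4a6, and of Col18a1, Col5a1, Col6a1, Col11a2 and Col14a1. In all, 10 of 37 tested members were lower and 0 higher at an adjusted p under 0.05 (edgeR's quasi-likelihood test, Benjamini-Hochberg over 14528 genes), which is 27.0% of the members. Over all genes tested 3.06% were lower and 3.88% higher, 6.94% in all. No member had all 8 rofecoxib libraries below or above all controls, as 0.509% and 0.275% of all genes had. The median log2 fold change was -0.24 over the collagens and 0.02 over all genes, with 28 of 37 collagens and 45.1% of all genes below 0. By class, 4 of 9 fibrillar, 4 of 9 basement membrane and 2 of 19 other members fell, with class medians of -0.34, -0.33 and -0.16.

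The number of collagens called with rofecoxib depended on single libraries and on what the fit took into account. It was 1 without control replicate 2, 3 without control replicate 1 or 6 or rofecoxib replicate 6 or 7, 4 without control replicate 7 or rofecoxib replicate 4, 5 without rofecoxib replicate 1 and 16 without rofecoxib replicate 8. With white adipocyte and skeletal muscle marker levels as covariates 0 were called by edgeR, 14 had an unadjusted p under 0.05 and the median was -0.19, with 19 genes called in all, beside 1008 without covariates. The skeletal muscle level used there was far higher in control replicate 3 than in the other controls. DESeq2 and limma voom each called 15 members, all lower. The share of all genes called is not given for the fits without 1 library, for these tools or for the split that follows. Their counts therefore do not show whether collagens stood out from other genes. Replicates 1 to 4 alone gave 0 calls by edgeR (13 at an unadjusted p under 0.05, median -0.23) and replicates 5 to 8 alone gave 2, Col1a1 and Col1a2 (median -0.23); this split came from an earlier look at these data, the labels name no batch, and library construction was spread over 3 days whose libraries were not given.

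**Figure D3:**
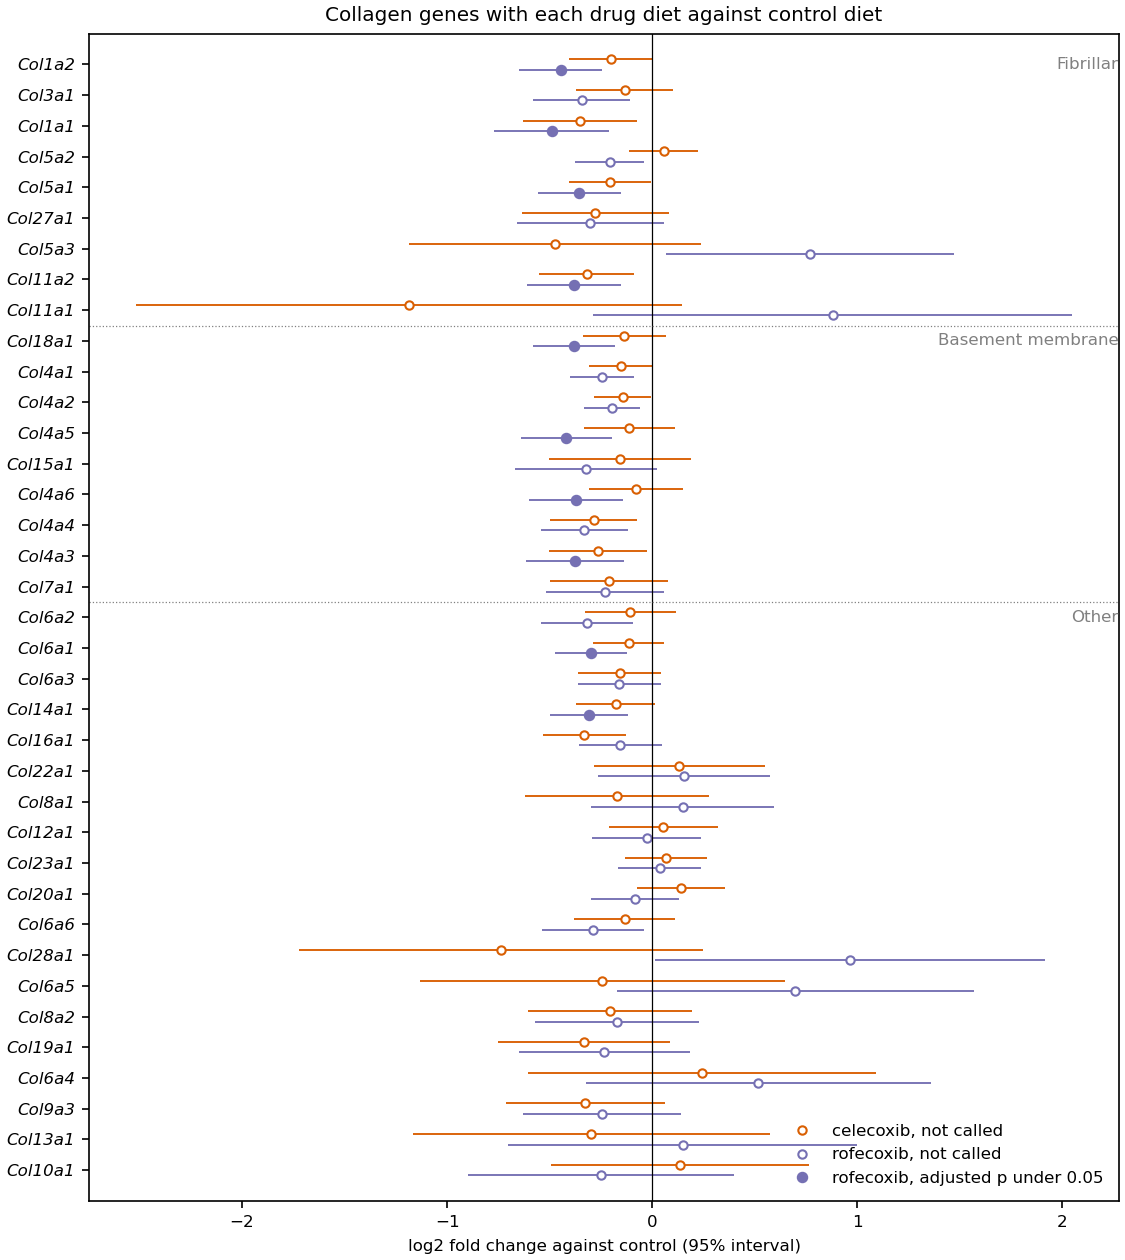
Log2 fold change of the 37 tested collagen genes against control for celecoxib (orange) and rofecoxib (violet), with 95% intervals; filled points passed at an adjusted p under 0.05 and dotted lines divide the fibrillar, basement membrane and other members. The 10 filled points are all rofecoxib values, from -0.49 for Col1a1 to -0.30 for Col6a1.

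Among the fibrillar genes, both chains of type I collagen, the main fibril of the adventitia and media, fell with rofecoxib. Col1a2 measured 2011 to 3233 CPM in celecoxib aortas (median 2159), 1652 to 2404 in rofecoxib aortas (median 1909.8) and 2153 to 3088 in controls (median 2620.5). Of the 8 rofecoxib libraries 6 lay below every control. The log2 fold change of Col1a2 was -0.45 (SE 0.10, edgeR adjusted p = 0.0133), and its call held in all 24 fits that each left out 1 library, at -0.50 to -0.41. In celecoxib aortas Col1a1 lay at 678 to 1207 CPM around a median of 805, in rofecoxib aortas at 559 to 1148 around 781, and in controls at 913 to 1412 around 1018. Here 7 of 8 rofecoxib libraries were below all controls and replicate 2 lay among the controls. The change of Col1a1 was -0.49 (SE 0.14, edgeR adjusted p = 0.0334); the call was lost without rofecoxib replicate 4, 6 or 7 or control replicate 1, 2 or 6, with a highest adjusted p of 0.0756. Without any 1 library the Col1a1 value stayed within -0.59 to -0.43.

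Col5a1 and Col11a2 code for chains of the minor fibrillar collagens V and XI, which start fibrils and set their diameter. The CPM range of Col5a1 was 330.3 to 488 with celecoxib (median 422), 328 to 469 with rofecoxib (median 357) and 392 to 606 in controls (median 471). Col5a1 changed by -0.36 (SE 0.10, edgeR adjusted p = 0.032), with 6 of 8 rofecoxib libraries below all controls; the call was lost without rofecoxib replicate 2, 4, 6 or 7 or control replicate 1, 2, 6 or 7 (adjusted p up to 0.0749). Values of Col11a2 ran over 7.27 to 10.7 CPM with celecoxib, 6.87 to 10.8 with rofecoxib and 7.81 to 14.3 without drug, with medians of 8.49, 7.87 and 10.7 in that order of groups. Col11a2, a low-level member, changed by -0.38 (SE 0.11, edgeR adjusted p = 0.0414), and lost its call without rofecoxib replicate 1, 2, 3, 5, 6 or 7 or control replicate 1, 2, 6 or 8 (adjusted p up to 0.0921). Only 3 of its 8 rofecoxib libraries lay below every control.

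The remaining fibrillar members did not pass. Col3a1, the chain of type III collagen of distensible vessels, was the nearest. In celecoxib aortas Col3a1 lay at 1483 to 2494 CPM around a median of 1680.3, in rofecoxib aortas at 1290.5 to 2046 around 1469, and in controls at 1561 to 2505 around 1915. Its log2 fold change with rofecoxib was -0.34 (SE 0.11, edgeR adjusted p = 0.0627). Col5a2 measured 549.7 to 729 CPM in celecoxib aortas (median 569), 386 to 607 in rofecoxib aortas (median 503) and 466 to 614 in controls (median 574). Col5a2, the other main chain of type V, stood at -0.21 (SE 0.08, edgeR adjusted p = 0.103), and Col27a1 at -0.30 (SE 0.17, edgeR adjusted p = 0.251). Col2a1, the cartilage fibril gene, was not tested and lay between 0.0484 and 0.669 CPM with celecoxib, 0 and 0.312 with rofecoxib and 0.142 and 0.683 in controls.

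In the basement membrane class all 9 members had log2 fold changes below 0 with rofecoxib, from -0.42 to -0.20. In the same comparison the 8 smooth muscle markers were all below 0, with a median of -0.14 and 1 called lower, and their part in these values was not tested. The CPM range of Col18a1 was 2613 to 4242 with celecoxib (median 3590.4), 2569 to 3745 with rofecoxib (median 2900.4) and 3238 to 4462 in controls (median 3965). Col18a1 changed by -0.38 (SE 0.10, edgeR adjusted p = 0.0246), with 7 of 8 rofecoxib libraries below all controls and replicate 8 within the control range. Its call was lost without rofecoxib replicate 7 or control replicate 2 or 7 (adjusted p up to 0.0571). Col15a1, the other multiplexin, was at -0.32 (SE 0.17, edgeR adjusted p = 0.209). Values of Col15a1 ran over 252 to 736 CPM with celecoxib, 299 to 482 with rofecoxib and 376 to 557 without drug, with medians of 404, 349.7 and 482 in that order of groups. The celecoxib libraries of Col15a1 spread from below all controls to above them.

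Type IV collagen forms 3 kinds of network, from Col4a1 with Col4a2 in nearly all basement membranes, from Col4a3, Col4a4 and Col4a5, and from Col4a5 with Col4a6, the last known from smooth muscle. Col4a5 measured 427 to 739 CPM in celecoxib aortas (median 539.5), 346 to 581 in rofecoxib aortas (median 440.4) and 480.3 to 660.1 in controls (median 605). Col4a5 changed by -0.42 (SE 0.11, edgeR adjusted p = 0.0246), 7 of 8 rofecoxib libraries lay below all controls, and the call was lost without rofecoxib replicate 2 or control replicate 2 (adjusted p up to 0.0518). In celecoxib aortas Col4a6 lay at 235 to 393 CPM around a median of 312, in rofecoxib aortas at 195 to 349 around 260.01, and in controls at 269.5 to 372 around 339. Col4a6 changed by -0.37 (SE 0.11, edgeR adjusted p = 0.0444), a call lost without celecoxib replicate 1 or 4, rofecoxib replicate 1, 2, 4, 5, 6 or 7 or control replicate 1, 2, 5, 6, 7 or 8 (adjusted p up to 0.0879). The CPM range of Col4a3 was 6.6 to 9.83 with celecoxib (median 8.06), 6.24 to 9.36 with rofecoxib (median 7.13) and 6.0 to 11.3 in controls (median 10.2). Col4a3, a low-level member, changed by -0.38 (SE 0.11, edgeR adjusted p = 0.0477) with no rofecoxib library below all controls, and lost its call without celecoxib replicate 1, 3, 5, 6 or 7, rofecoxib replicate 1, 3, 4, 5, 6 or 7 or control replicate 1, 2, 5, 6, 7 or 8 (adjusted p up to 0.0978).

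The widespread type IV chains lay just outside the threshold. Values of Col4a1 ran over 1640.04 to 2324 CPM with celecoxib, 1718 to 2357 with rofecoxib and 1918 to 2639 without drug, with medians of 2024, 1827 and 2222 in that order of groups. Col4a1 was at -0.24 (SE 0.08, edgeR adjusted p = 0.0514) with rofecoxib, with 5 of 8 libraries below every control. Col4a2 measured 1294 to 1742 CPM in celecoxib aortas (median 1527), 1332 to 1769 in rofecoxib aortas (median 1438) and 1446 to 1908 in controls (median 1709.9). Col4a2 was at -0.20 (SE 0.07, edgeR adjusted p = 0.0671) and Col4a4 at -0.33 (SE 0.10, edgeR adjusted p = 0.052). Col7a1, which forms the anchoring fibrils known from skin, was low at 4.7, 4.49 and 5.08 CPM in the medians of celecoxib, rofecoxib and control libraries, at a log2 fold change of -0.23 with rofecoxib (SE 0.14, edgeR adjusted p = 0.274).

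Of the other collagens, Col6a1 and Col14a1 fell with rofecoxib. In celecoxib aortas Col6a1 lay at 660.2 to 1019 CPM around a median of 815, in rofecoxib aortas at 673 to 893 around 700.4, and in controls at 788 to 1066 around 899. Col6a1, a chain of the beaded microfilaments, changed by -0.30 (SE 0.08, edgeR adjusted p = 0.0363); 7 of 8 rofecoxib libraries lay below all controls and replicate 8 was the exception. The call was lost without rofecoxib replicate 1, 2, 4, 6 or 7 or control replicate 1, 2, 6 or 7 (adjusted p up to 0.0842). The CPM range of Col14a1 was 138 to 185 with celecoxib (median 155), 117 to 175 with rofecoxib (median 148) and 126 to 204 in controls (median 184). Col14a1, a FACIT chain that binds fibrils, changed by -0.31 (SE 0.09, edgeR adjusted p = 0.0444) with overlapping groups, and its call was lost without celecoxib replicate 1, rofecoxib replicate 1, 2, 4, 5 or 6 or control replicate 1, 2, 5, 6, 7 or 8 (adjusted p up to 0.092).

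The other type VI chains did not pass: Col6a2 was at -0.32 (SE 0.11, edgeR adjusted p = 0.0671) and Col6a3 at -0.16 (SE 0.10, edgeR adjusted p = 0.279) with rofecoxib. Values of Col6a2 ran over 617 to 1129 CPM with celecoxib, 663 to 916 with rofecoxib and 799 to 1073 without drug, with medians of 856, 721 and 939 in that order of groups. Col6a3 measured 358 to 545 CPM in celecoxib aortas (median 435), 341 to 567 in rofecoxib aortas (median 414) and 398 to 555 in controls (median 503). The rofecoxib range of Col6a2 sat mostly under the control range (6 of 8 below all controls), that of Col6a3 inside and beside it. Col8a1, a network-forming collagen of vessels that smooth muscle makes, had medians of 14.9, 21.2 and 20.8 CPM with celecoxib, rofecoxib and control diet and a log2 fold change of 0.15 with rofecoxib (95% interval -0.30 to 0.59). Its partner Col8a2 was at -0.17 (95% interval -0.57 to 0.23) around medians of 1.73, 1.68 and 2.29 CPM in the same order. Of the transmembrane collagens, Col23a1 had medians of 9.56, 10.2 and 9.68 CPM with celecoxib, rofecoxib and control diet, and Col13a1 0.64, 0.98 and 0.93; with rofecoxib their log2 fold changes were 0.04 (SE 0.10) and 0.15 (SE 0.41). Fold changes above 0 with rofecoxib came from members of low level: Col28a1 at 0.96, Col11a1 at 0.88, Col5a3 at 0.77, Col6a5 at 0.70 and Col6a4 at 0.52, with edgeR adjusted p from 0.142 to 0.405. Without rofecoxib replicate 5 these values were 0.20 for Col28a1, 0.09 for Col11a1 and 0.29 for Col5a3. The 9 members above 0 were completed by Col22a1, Col13a1, Col8a1 and Col23a1, each at 0.15 or less.

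The comparison of celecoxib with control used the same 8 control libraries, so its values are not independent of those above. No collagen passed: 0 of 37 were called by edgeR, against 0.0344% of all genes (0.0275% lower and 0.00688% higher). At an unadjusted p under 0.05 there were 8 members, all lower, beside 5.83% of all genes lower and 7.72% higher. DESeq2 also called 0, limma voom 1 and edgeR fitted on these groups alone 1, in both cases Col16a1. Below 0 were 30 of 37 members, against 49.6% of all genes, and the median was -0.17, against 0.00 over all genes. By class the medians were -0.28 for fibrillar, -0.15 for basement membrane and -0.16 for other members.

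The single collagen gene whose celecoxib and control libraries did not overlap was Col16a1, a FACIT chain. The CPM range of Col16a1 was 34.3 to 39.8 with celecoxib (median 37.9), 31.5 to 62.7 with rofecoxib (median 40.5) and 41.4 to 53.5 in controls (median 46.4). All 8 celecoxib libraries lay below every control, as in 0.145% of all genes tested, with 0.0895% not overlapping in the other direction. Its log2 fold change was -0.33 (SE 0.10, edgeR adjusted p = 0.189), short of the threshold, and its adjusted p over the other settings that kept all libraries ran from 0.0216 to 0.562. With rofecoxib Col16a1 was at -0.16 (SE 0.10), 4 libraries being below all controls and 1 above them.

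Other members with an unadjusted p under 0.05 for celecoxib were Col1a1 at -0.35 (SE 0.14, edgeR adjusted p = 0.267), Col11a2 at -0.32, Col4a4 at -0.28, Col4a3 at -0.26, Col5a1 at -0.21, Col1a2 at -0.20 and Col4a2 at -0.14. In Col1a1 6 of 8 celecoxib libraries lay below all controls. For members called with rofecoxib, the 95% intervals of the celecoxib change were -0.40 to -0.0019 for Col1a2, -0.34 to 0.07 for Col18a1 and -0.33 to 0.11 for Col4a5. These intervals do not show that Col18a1 and Col4a5 stayed the same with celecoxib. Col5a2 was the one fibrillar gene above 0 with celecoxib, at 0.06 (95% interval -0.11 to 0.22).

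The direct comparison of celecoxib with rofecoxib set 100 against 50 mg/kg/day, so the drugs and their doses cannot be told apart. It covered 1 pair of compounds. Of 37 members, 2 were lower with celecoxib and 0 higher beside 4.32% of all genes lower and 0.564% higher, 4.89% in all. At an unadjusted p under 0.05 there were 4 members lower and 7 higher, beside 15.1% and 7.94% of all genes, and 12 of 37 members lay below 0, beside 48.3%. No member's libraries were free of overlap, as 0.0413% of all genes were on the lower and 0.0138% on the higher side. The called members were Col28a1, a collagen known from peripheral nerve, and Col5a3, a minor chain of type V. The members that fell with rofecoxib against control were not among them: the difference of Col1a2 was 0.24 (95% interval 0.04 to 0.44, edgeR adjusted p = 0.133), that of Col18a1 0.25 (0.04 to 0.45, edgeR adjusted p = 0.128) and that of Col1a1 0.14 (-0.14 to 0.42, edgeR adjusted p = 0.589).

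In celecoxib aortas Col28a1 lay at 0.73 to 2.75 CPM around a median of 2.07, in rofecoxib aortas at 1.66 to 25.1 around 3.77, and in controls at 1.62 to 8.37 around 2.56. One library, rofecoxib replicate 5, stood far above the rest, and the other libraries of the groups overlapped. Col28a1 differed by -1.70 (SE 0.48, edgeR adjusted p = 0.0421) between celecoxib and rofecoxib, and by -0.94 (adjusted p = 0.121) without rofecoxib replicate 5. Col5a3 measured 5.76 to 12.9 CPM in celecoxib aortas (median 7.8), 6.79 to 59 in rofecoxib aortas (median 13.4) and 5.33 to 17.5 in controls (median 12.8). The same library was the highest for Col5a3, whose difference was -1.24 (SE 0.34, edgeR adjusted p = 0.0416) and, without it, -0.76 (adjusted p = 0.0859). Both calls were also lost without celecoxib replicate 2, 3, 4, 5 or 6, rofecoxib replicate 1, 2, 3, 4, 5 or 7 or control replicate 1, 2 or 6, each in turn, with values of -1.85 to -0.94 for Col28a1 and -1.37 to -0.76 for Col5a3.

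Col11a1, a chain of the cartilage fibril that also occurs elsewhere, was likewise highest in that library, at 4.87 CPM. Values of Col11a1 ran over 0.189 to 0.435 CPM with celecoxib, 0.0886 to 4.87 with rofecoxib and 0.191 to 1.85 without drug, with medians of 0.236, 0.768 and 0.383 in that order of groups. Its difference between celecoxib and rofecoxib was -2.07 (SE 0.62, edgeR adjusted p = 0.0518) and -1.27 without rofecoxib replicate 5. On the higher side with celecoxib the nearest were Col5a2 at 0.26 (edgeR adjusted p = 0.0581), Col4a5 at 0.31 (edgeR adjusted p = 0.0822) and Col4a6 at 0.29 (edgeR adjusted p = 0.11). Replicates 1 to 4 alone gave 12 calls in this comparison, 6 higher and 6 lower. Replicates 5 to 8 alone gave 0 by edgeR, with 3 at an unadjusted p under 0.05. This split came from an earlier look at these data. The share of all genes called is not given for either part, so the 12 calls cannot be read as particular to collagens.

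Asked whether any of the 3 groups differed, edgeR called 4 of 37 members, Col1a2, Col4a5, Col18a1 and Col1a1, beside 7.62% of all genes. Their adjusted p were 0.0298, 0.0396, 0.042 and 0.0494. All of these were also called for rofecoxib against control. Leaving out 1 library gave 0 to 13 calls, 0 without rofecoxib replicate 4 or 7 or control replicate 1 or 2, 1 without celecoxib replicate 3, 4 or 5, rofecoxib replicate 1 or control replicate 6, 2 without rofecoxib replicate 2, 3 or 5 or control replicate 7, 7 without celecoxib replicate 1, 8 without control replicate 3 and 13 without rofecoxib replicate 8. As the share of all genes called is not given for these fits, the counts do not show whether collagens moved apart from other genes.

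**Figure D4:**
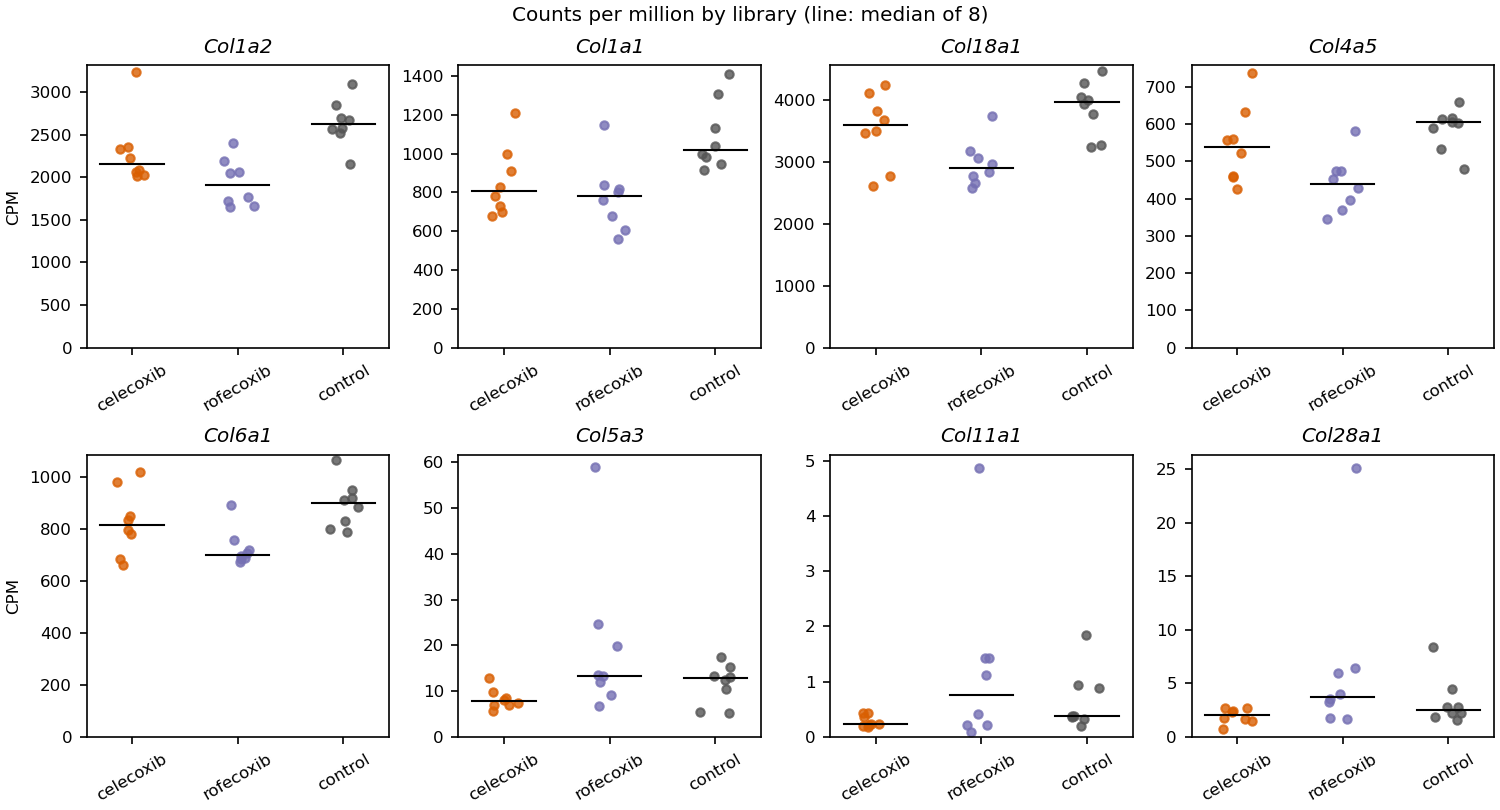
CPM of 8 collagen genes in each of 24 libraries with celecoxib, rofecoxib and control diet; points are libraries and lines medians of 8. In Col1a2, Col1a1, Col18a1, Col4a5 and Col6a1 most rofecoxib points lie under the controls, and in Col5a3, Col11a1 and Col28a1 a single rofecoxib library is the highest of all, at 59.0, 4.87 and 25.1 CPM.

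Chains of the same collagen type, and Col1a1 with Col3a1 of the types I and III that share fibrils, were compared across the 24 libraries, as deviations of log2 CPM from the group mean, so that diet differences did not enter. Of 9 pairs of the same type, 7 correlated positively at an adjusted p under 0.05 for r, as did Col1a1 with Col3a1. The p-values were adjusted over all 10 pairs. Other pairs of collagens were not computed as a baseline. The counts therefore do not show that partner chains ran closer together than other collagens did. The closest were Col6a1 and Col6a2, r = 0.95 (rho 0.92, permutation adjusted p = 2.5e-05 and 3.33e-05 for rho), Col4a1 and Col4a2, r = 0.94 (rho 0.85, permutation adjusted p = 2.5e-05 and 7.5e-05 for rho), Col4a5 and Col4a6, r = 0.93 (rho 0.87, permutation adjusted p = 2.5e-05 and 3.33e-05 for rho), and the type I chains Col1a1 and Col1a2, r = 0.88 (rho 0.87, permutation adjusted p = 2.5e-05 and 3.33e-05 for rho). Without the 2 libraries farthest from the median, these r were 0.95, 0.93, 0.92 and 0.86. Here 1e-05 is the smallest unadjusted p that the permutations can give.

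Looser pairs were Col1a1 with Col3a1, r = 0.76 (rho 0.58, permutation adjusted p = 0.00014 and 0.00793 for rho), Col4a3 with Col4a4, r = 0.67 (rho 0.60, permutation adjusted p = 0.000817 and 0.00452 for rho), and Col6a1 with Col6a3, r = 0.65 (rho 0.67, permutation adjusted p = 0.000971 and 0.0016 for rho); without the 2 farthest libraries these were 0.72, 0.64 and 0.56. Col5a1 and Col5a2 gave r = 0.46 (rho 0.40, permutation adjusted p = 0.0281 and 0.0653 for rho), and 0.47 without the 2 farthest libraries. Col8a1 with Col8a2, at r = -0.26, and Col11a1 with Col11a2, at r = -0.29, did not pass (permutation adjusted p = 0.209 for both), and were -0.29 and -0.16 without the 2 farthest libraries. The ratio of Col4a1 to Col4a2, in CPM per kb of transcript, was 1.24 to 1.33 with celecoxib, 1.17 to 1.33 with rofecoxib and 1.23 to 1.35 in controls, and that of Col4a6 to Col4a5 was 0.482 to 0.625 with celecoxib, 0.522 to 0.603 with rofecoxib and 0.507 to 0.58 in controls. The ranges of both ratios overlapped between all groups. All chains of a library share its RNA and scaling.

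The 3 gene pairs of type IV lie head to head on the chromosomes. On mm9 the table's Col4a1 and Col4a2 rows overlap by 426 bp, Col4a4 and Col4a3 overlap by 333 bp, and Col4a6 and Col4a5 lie 904 bp apart. Whether counting used strand is not stated in the labels or the table, so reads in the overlaps could not be assigned. The RefSeq promoter windows of Col4a1 and Col4a2 (250 bases before to 50 after each start, GRCm38.p6, another build than that of the counts) are shown because the transcripts that start there were correlated across libraries; the capitals mark CCAAT and GGGCGG on either strand, ATTGG and CCGCCC being their reverse complements.
Col4a1 promoter: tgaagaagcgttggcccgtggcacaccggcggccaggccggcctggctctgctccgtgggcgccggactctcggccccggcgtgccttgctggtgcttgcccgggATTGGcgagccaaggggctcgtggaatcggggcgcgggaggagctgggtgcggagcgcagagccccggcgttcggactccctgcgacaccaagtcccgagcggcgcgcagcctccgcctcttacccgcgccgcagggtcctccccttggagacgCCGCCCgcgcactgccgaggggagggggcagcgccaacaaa
Col4a2 promoter: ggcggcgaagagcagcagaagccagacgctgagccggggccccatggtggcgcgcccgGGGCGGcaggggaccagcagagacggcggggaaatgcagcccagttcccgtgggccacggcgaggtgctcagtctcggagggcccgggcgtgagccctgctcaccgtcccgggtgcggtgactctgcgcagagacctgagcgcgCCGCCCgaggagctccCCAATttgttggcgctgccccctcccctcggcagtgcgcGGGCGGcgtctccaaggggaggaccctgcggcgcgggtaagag
The Col4a1 window is chr8:11312777-11313076 on the minus strand and the Col4a2 window chr8:11312555-11312854 on the plus strand. The windows share 78 bases, and the annotated starts are 21 bp apart. The window of Col1a2, whose fall held without any 1 library, is shown beside them and is chr6:4505368-4505667 on the plus strand.
Col1a2 promoter: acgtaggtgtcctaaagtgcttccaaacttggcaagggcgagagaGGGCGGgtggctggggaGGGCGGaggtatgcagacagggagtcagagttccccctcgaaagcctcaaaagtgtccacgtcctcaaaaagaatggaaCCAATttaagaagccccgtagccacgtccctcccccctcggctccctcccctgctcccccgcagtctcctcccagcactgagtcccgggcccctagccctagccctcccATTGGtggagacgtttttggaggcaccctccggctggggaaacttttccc
In it CCAAT (either strand) was found 2 times and GGGCGG 2 times, in Col4a1 1 and 1 times and in Col4a2 1 and 3 times. The GGGCGG match of Col4a1 lies in the bases that both windows share and is the same site as the last match of Col4a2. RefSeq windows were at hand for 35 of the 43 members, 38 windows in all. GGGCGG was in 60.5% of them and in 35.7% of all 32851 promoter windows, CCAAT in 34.2% and 37.4%, and TATAAA in 13.2% and 13.6%. No TATAAA stood in the 3 windows shown, no motif overlapped another there, and the matches describe letters, not binding.

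Genes that process collagen were lower with rofecoxib wherever they passed the test. Of 19 tested genes of chain synthesis and folding, 3 fell and 0 rose, with a median log2 fold change of -0.16, beside 3.06% of all genes lower and 3.88% higher. P3h3 (Leprel2 in the table), of the prolyl 3-hydroxylase family, averaged 119 CPM with rofecoxib and 146 in controls, a change of -0.30 (SE 0.07, adjusted p = 0.0153) by edgeR; Crtap, a subunit of the prolyl 3-hydroxylation complex, changed by -0.23 (SE 0.05, adjusted p = 0.0181) and Fkbp10, a collagen chaperone, by -0.22 (SE 0.06, adjusted p = 0.0256) in the same edgeR fit. Of 5 lysyl oxidase genes, which crosslink fibrils, 2 fell: Loxl3 by 0.42 (SE 0.08, adjusted p = 0.00657) and Loxl1 by 0.35 (SE 0.09, adjusted p = 0.0235) on the log2 scale by edgeR, and the list median was -0.29, beside the same shares of all genes.

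The small proteoglycans that bind fibrils had 4 of 7 members lower and 0 higher with rofecoxib, with a median of -0.34, beside the same 3.06% and 3.88% of all genes. Bgn (biglycan) averaged 5799.7 CPM with rofecoxib and 7320.1 in controls, and changed by -0.34 (SE 0.08, adjusted p = 0.0211) by edgeR. Ogn (mimecan) changed by -0.48 (SE 0.11, adjusted p = 0.0158), Prelp by -0.36 (SE 0.09, adjusted p = 0.0198) and Aspn (asporin) by -0.55 (SE 0.14, adjusted p = 0.0264) in the same edgeR fit. No member passed among 7 tested genes of propeptide processing (median -0.17), 9 of collagen receptors and uptake (median -0.17) and 9 of collagen breakdown (median -0.06); by edgeR 3, 5 and 3 of them had an unadjusted p under 0.05. The nearest were Pcolce2, an enhancer of procollagen C-propeptide cleavage, at -0.36 (SE 0.12, adjusted p = 0.0635), Lair1, an inhibitory collagen receptor of leukocytes, at 1.07 (SE 0.35, adjusted p = 0.0587), and Mmp2, a gelatinase, at -0.38 (SE 0.12, adjusted p = 0.0541), all by edgeR. With celecoxib against control, no gene of the 6 lists passed by edgeR, and list medians ran from -0.17 for breakdown to -0.01 for synthesis and folding.

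Between the drugs, P3h3 at 0.24 (SE 0.07, adjusted p = 0.0403), Fkbp10 at 0.21 (SE 0.06, adjusted p = 0.0397) and Ogn at 0.40 (SE 0.11, adjusted p = 0.0397) were higher with celecoxib by edgeR. Of the breakdown list, Mmp8 at -1.51 (SE 0.42, adjusted p = 0.0423) and Mmp9 at -1.17 (SE 0.28, adjusted p = 0.0369), collagenase and gelatinase stored in neutrophil granules, were lower with celecoxib. Mmp9 also stands in the neutrophil marker list, of which 5 of 5 tested members were lower with celecoxib than with rofecoxib.

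Markers of several cell types leaned to 1 side with rofecoxib against control, though few were called. Over all genes tested, 3.06% were called lower and 3.88% higher in this comparison. With rofecoxib against control, all 8 smooth muscle markers had log2 fold changes below 0 (1 called lower, median -0.14), all 8 white adipocyte markers lay above 0 (2 called higher, median 0.78) and all 8 endothelial ones above 0 (2 called higher, median 0.27). The 8 fibroblast markers had a median of 0.03 with 0 called. Their sum was 799 to 1286 CPM with celecoxib, 778 to 1311 with rofecoxib and 811 to 1166 in controls. The 7 tested Schwann cell markers had a median of 1.19 with 0 called, and the list summed to 101 to 144 CPM with celecoxib, 113 to 738 with rofecoxib and 115 to 299.7 in controls. The 6 brown adipocyte markers lay above 0 with 0 called (median 0.88, sums of 46.4 to 480.3 CPM with celecoxib, 283 to 1646 with rofecoxib and 130.3 to 1106 in controls), and the 8 macrophage markers above 0 with 1 called, Mrc1 (median 0.36, sums of 84.4 to 169 CPM with celecoxib, 102 to 266 with rofecoxib and 113 to 169 in controls). The 4 tested skeletal muscle markers were below 0 (median -0.64, sums of 4.83 to 20.4 CPM with celecoxib, 3.79 to 18.6 with rofecoxib and 3.95 to 74.9 in controls), as were the 5 tested chondrocyte markers (median -0.37, sums of 66.1 to 96.4 CPM with celecoxib, 56.6 to 98.4 with rofecoxib and 72.7 to 116 in controls, with Matn1 at 0 in all rofecoxib libraries). Control replicate 3 stood apart in skeletal muscle level, at a mean log2 CPM of 3.22, beside -0.58 to 0.23 in the other controls. Median skeletal muscle sums were 6.69 CPM with celecoxib, 5.62 with rofecoxib and 5.27 in controls. In the chondrocyte list, Acan and Comp averaged 42.2 and 46.6 CPM in controls. Matn1, Matn3, Cnmd and Ucma averaged at most 0.18 CPM in any group. The list name therefore does not show that chondrocytes were present. The 5 tested neutrophil markers lay above 0 with 0 called (median 0.65, sums of 8.84 to 34.4 CPM with celecoxib, 19.6 to 112 with rofecoxib and 18.3 to 76.1 in controls). None of the mesothelial markers and 1 of the epidermal ones could be tested; Dsg3 was at 0 in every rofecoxib and control library and Krt5 and Krt14 in every rofecoxib library.

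Between celecoxib and rofecoxib, markers were lower with celecoxib for Schwann cells (4 of 7 called, median -1.65), white adipocytes (4 of 8, median -1.19), brown adipocytes (2 of 6, median -1.29), macrophages (4 of 8, median -0.60) and neutrophils (5 of 5, median -1.53), beside 4.32% of all genes lower and 0.564% higher. Of fibroblast, smooth muscle, endothelial, skeletal muscle and chondrocyte markers 0 were called by edgeR, with 1, 5, 4, 1 and 0 at an unadjusted p under 0.05. With celecoxib against control, 0 markers of any list were called, the largest medians being -1.17 for skeletal muscle and -0.88 for neutrophils; an unadjusted p under 0.05 was reached by 2 endothelial, 3 skeletal muscle, 2 Schwann cell and 4 neutrophil markers. In skeletal muscle level control replicate 3 stood far above the other controls, and marker values without it are not given. The part of these cell types in the collagen differences was not tested beyond the fits with marker covariates given here.

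Across libraries, again as deviations from the group mean, each tested collagen gene was set against each marker level, 370 relations in all. The list a gene is said to follow is that of its largest absolute r, and it may follow others too. The share of all genes that correlate as strongly with each level is not given. These relations therefore do not show that collagens followed a list more closely than other genes did. Relations that also passed were Col6a1 with smooth muscle (r = 0.67), Col5a1 with the chondrocyte list (r = 0.68), and Col6a5 and Col8a1 with endothelial markers (r = 0.77 and 0.70). Their permutation adjusted p for r ran from 0.00238 to 0.00795. At permutation adjusted p from 0.00982 to 0.0488 for r, further positive relations were Col6a4 with endothelial (r = 0.63) and Col13a1 with Schwann cell markers (r = 0.50). Col12a1 with fibroblast (r = 0.62) and Col7a1 with white adipocyte markers (r = 0.56) were likewise positive. Negative ones in that range were Col6a2 with macrophage (r = -0.64), Col22a1 with smooth muscle (r = -0.59) and Col5a2 with endothelial markers (r = -0.61). Col28a1 followed the Schwann cell level, r = 0.96 (rho 0.94, permutation adjusted p = 0.000925 and 0.000925 for rho; r = 0.91 without the 2 libraries farthest from the median), as did Col11a1, r = 0.86 (rho 0.71, permutation adjusted p = 0.00168 and 0.0111 for rho; r = 0.73 without the 2 libraries farthest from the median), Col5a3, r = 0.78 (rho 0.70, permutation adjusted p = 0.00333 and 0.0107 for rho; r = 0.59 without the 2 libraries farthest from the median), and Col16a1, r = 0.71 (rho 0.50, permutation adjusted p = 0.0441 and 0.112 for rho; r = 0.56 without the 2 libraries farthest from the median). In rofecoxib replicate 5, where Col28a1, Col11a1 and Col5a3 peaked, the Schwann cell markers also reached their highest sum, 738 CPM. With white adipocyte and Schwann cell levels as covariates, a setting chosen after the data were seen, the celecoxib minus rofecoxib values turned to 0.39 for Col28a1 and 0.34 for Col5a3, with adjusted p of 0.641 and 0.996 by edgeR.

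Several basement membrane members followed smooth muscle: Col4a5, r = 0.82 (rho 0.74, permutation adjusted p = 0.000925 and 0.00296 for rho; r = 0.77 without the 2 libraries farthest from the median), Col18a1, r = 0.80 (rho 0.83, permutation adjusted p = 0.000925 and 0.000925 for rho; r = 0.77 without the 2 libraries farthest from the median), and Col15a1, r = 0.77 (rho 0.81, permutation adjusted p = 0.000925 and 0.000925 for rho; r = 0.72 without the 2 libraries farthest from the median). So did Col6a3 of type VI, r = 0.80 (rho 0.86, permutation adjusted p = 0.00168 and 0.00123 for rho; r = 0.77 without the 2 libraries farthest from the median). Col4a6 ran opposite to the endothelial level, r = -0.85 (rho -0.77, permutation adjusted p = 0.000925 and 0.00206 for rho; r = -0.79 without the 2 libraries farthest from the median). The low-level chains Col4a4 and Col4a3 followed fibroblast markers instead, Col4a4 with r = 0.82 (rho 0.82, permutation adjusted p = 0.000925 and 0.000925 for rho; r = 0.80 without the 2 libraries farthest from the median) and Col4a3 with r = 0.72 (rho 0.77, permutation adjusted p = 0.000925 and 0.00206 for rho; r = 0.76 without the 2 libraries farthest from the median), as did Col14a1, r = 0.67 (rho 0.66, permutation adjusted p = 0.00333 and 0.00996 for rho; r = 0.68 without the 2 libraries farthest from the median). Col1a2 and Col1a1 followed neither list beyond an adjusted p of 0.05: r with smooth muscle was 0.50 for Col1a2 (permutation adjusted p = 0.0972) and 0.24 for Col1a1 (permutation adjusted p = 0.515), and r with fibroblast markers 0.25 and 0.16 (permutation adjusted p = 0.53 and 0.71).

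**Figure D5:**
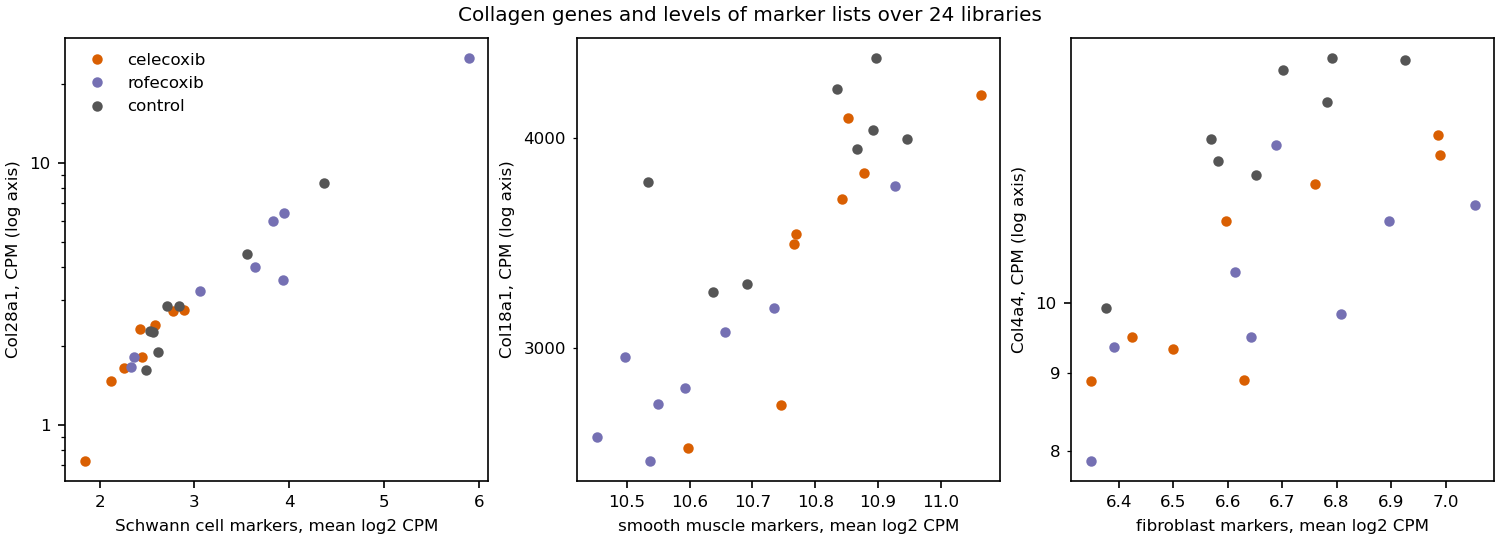
CPM of Col28a1, Col18a1 and Col4a4 (log axes) against the mean log2 CPM of Schwann cell, smooth muscle and fibroblast markers in 24 libraries; colours mark celecoxib, rofecoxib and control. Col28a1 and its Schwann cell level rise together up to 25.1 CPM in 1 rofecoxib library, and the r of the deviations are 0.96, 0.80 and 0.82 for the 3 panels.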

How the data were processed

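The authors deposited raw counts per gene for 24 aorta libraries. Per the submitters' processing notes, CASAVA 1.8.1, STAR 2.5.1b and mm9 were used; the counting tool, the gene annotation, the strand setting and the way in which totals came to be nearly equal are not given in the sources used here. Depth was 21668798 to 21700121 counts per library, with TMM factors from 0.946 to 1.07. No column was left unmapped. Replicates differed beyond counting noise in every check. They are biological replicates per the labels; library construction spanned several days, and the day of each library is not given.

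Genes passing filterByExpr of edgeR 4.0.16 (14528) were fitted with its quasi-likelihood model, 1 mean per group over all 24 libraries, with TMM scaling and p-values adjusted by the Benjamini-Hochberg method over all genes tested; called means an adjusted p under 0.05. The common biological coefficient of variation was 19.6%. Alternatives were RLE and library-size scaling, no filter on low counts, a floor on the mean of 1 CPM, limma 3.58.1 voom with sample weights, DESeq2 1.42.0, fits of the groups compared alone, a replicate block, marker covariates, the split of replicates 1 to 4 and 5 to 8, and leaving out each library. The procedure was tested on simulated data. Correlations used log2 CPM with a prior count of 2, as deviations from group means, with 100000 permutations within groups, two-sided. Symbols, exons and promoters came from GENCODE and RefSeq tables of GRCm38, never converted to mm9. R 4.3.3 with the data.table package (1.17.8), Python 3.11.15, pandas 2.3.3 and matplotlib 3.10.9 were used.

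Full values are given for collagens called in any comparison, the 2 members of highest level in each class and a fixed list of main chains; from each pathway list, up to 4 called genes of smallest p, or otherwise up to 2 genes as values. Members outside this rule, such as Col27a1, Col6a4, Col6a5 and Col22a1, and single marker genes were named after their values were seen. The members, classes, marker lists and pathway lists were chosen with earlier results of these data known.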

Additional observations from a re-analysis of the deposited data

Results flagged for a closer look

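In 13 of 93 groups of 8 libraries, 1 library stood apart from the other 7 by more than the gap that chance exceeds in about 1 in 20 groups. Rofecoxib replicate 5 was the highest for Col5a3 (59.0 CPM, next 24.6), Col11a1 (4.87, next 1.44) and Col28a1 (25.1, next 6.4). Control replicate 5 was the highest control for Col11a1 (1.85 CPM, next 0.940) and Col28a1 (8.37, next 4.47). Celecoxib replicate 2 stood high for Col1a2 (3233 CPM, next 2356), Col5a2 (729, next 588) and the fibrillar sum (8341, next 6553). Among type IV and VI chains, rofecoxib replicate 2 was high for Col4a1 (2357 CPM, next 1989) and rofecoxib replicate 8 for Col6a1 (893, next 759). Col11a2 was high in celecoxib replicate 1 (10.7 CPM, next 8.91) and in rofecoxib replicate 4 (10.8, next 8.50). Control replicate 3 was low for Col5a2 (466 CPM, next 548).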

How the results depend on the processing

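Counts of called collagens depended on the setting. They are given without the share of all genes called in each setting. They show how far the calls moved, and not whether collagens stood out from other genes. For rofecoxib against control (10), no filter gave 5, white adipocyte with skeletal muscle covariates 0, white adipocyte with Schwann cell covariates 0 (added after seeing the data; 13 at an unadjusted p under 0.05), replicates 1 to 4 alone 0 and replicates 5 to 8 alone 2; leaving out 1 library gave 1 to 16. RLE scaling gave 12, library size alone 7, the 1 CPM filter 12 and the groups compared alone 8. For celecoxib against rofecoxib (2), no filter, the groups alone and both covariate fits gave 0, DESeq2 5 (2 higher), voom 3 (3 higher, 0 lower), replicates 1 to 4 alone 12 and replicates 5 to 8 alone 0; leaving out 1 library gave 0 to 7. For celecoxib against control (0), voom and the groups alone each gave 1, and leaving out 1 library 0. For any difference among the 3 groups (4), no filter gave 1, DESeq2 18, voom 14, both covariate fits 0, the batch term 11, replicates 1 to 4 alone 9 and replicates 5 to 8 alone 1; leaving out 1 library gave 0 to 13. The Col5a1 and Col5a2 correlation no longer passed with library size alone (r = 0.30), and lay between 0.35 and 0.53 on leaving out 1 library. Among log2 fold changes of named genes under alternatives, 2568 kept direction and call, 172 lost a call, 62 gained one and 75 turned sign; 2 of the 75 were called before the change (Col5a3 and Col28a1, celecoxib against rofecoxib). The turned values are given here by setting. With the batch term, the value for celecoxib against rofecoxib was -8.56e-05 in Col6a3. With library size alone, values were for celecoxib against rofecoxib -0.016 in Col7a1, -0.039 in Col6a3 and -0.0093 in Col23a1. With voom, values were for rofecoxib against control -0.089 in Col11a1, and for celecoxib against rofecoxib -0.0027 in Col6a3 and 0.056 in Col8a2. With the replicate block, the value for celecoxib against rofecoxib was -0.0037 in Col6a3. With replicates 1 to 4 alone, values were for celecoxib against control 0.013 in Col18a1, 0.27 in Col15a1, 0.17 in Col4a5, 0.21 in Col4a6, 0.10 in Col6a2 and 0.0062 in Col6a1, and for celecoxib against rofecoxib -0.24 in Col7a1 and 0.21 in Col8a2. With replicates 5 to 8 alone, values were for celecoxib against control 0.038 in Col7a1, -0.073 in Col5a2, 0.48 in Col8a1, -0.056 in Col23a1 and 0.56 in Col13a1, and for rofecoxib against control -0.082 in Col23a1, and for celecoxib against rofecoxib -0.21 in Col15a1, -0.025 in Col4a5, -0.022 in Col4a6, -0.030 in Col5a1, -0.012 in Col11a2, -0.077 in Col6a2, -0.032 in Col6a1, -0.049 in Col6a3, 0.18 in Col8a1 and 0.29 in Col13a1. With adipocyte and Schwann cell covariates, values were for celecoxib against control -0.014 in Col5a2, 0.000377 in Col5a3, 0.027 in Col13a1 and 0.012 in Col28a1, and for rofecoxib against control -0.34 in Col5a3, -0.64 in Col11a1, -0.16 in Col8a1, -0.16 in Col13a1 and -0.38 in Col28a1, and for celecoxib against rofecoxib -0.0076 in Col18a1, -0.24 in Col15a1, -0.020 in Col4a6, -0.0028 in Col5a1, 0.34 in Col5a3, 0.40 in Col11a1, 0.083 in Col16a1, -0.19 in Col6a3, 0.14 in Col8a1, 0.19 in Col13a1 and 0.39 in Col28a1. With adipocyte and muscle covariates, values were for rofecoxib against control -0.0072 in Col8a1, and for celecoxib against rofecoxib -0.13 in Col15a1, -0.12 in Col6a3 and -0.026 in Col23a1. Leaving out 1 library gave 19 of the 75, and the fold changes then spanned for rofecoxib against control -0.0028 to 0.087 in Col23a1, and for celecoxib against rofecoxib -0.020 to 0.077 in Col23a1, -0.046 to 0.065 in Col6a3, -0.026 to 0.086 in Col7a1 and -0.13 to 0.11 in Col8a2. A replicate block gave 11, 0 and 0 calls for rofecoxib against control, celecoxib against rofecoxib and celecoxib against control, and 5 for any difference; same-numbered libraries deviated together, with r over 0.1, in only 3 of 8 pairs of rofecoxib and control, 5 of celecoxib and rofecoxib and 4 of celecoxib and control, so numbers were not taken as pairs. The cause of these changes was not tested. Members under 1 CPM rest on few reads, and their fold changes have wide intervals.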

Other observations

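Several collagens outside the main fibril and basement membrane chains had levels that overlapped between all groups. Col27a1, a fibrillar chain known from cartilage, had median levels of 154 CPM with celecoxib, 145 with rofecoxib and 179 in controls. Its range was widest with rofecoxib, 78.9 to 231 CPM, against 151 to 228 CPM in controls. Col22a1, a FACIT chain of tissue junctions, had medians of 29.2 CPM with celecoxib, 29.4 with rofecoxib and 24.7 in controls, and Col12a1, a FACIT chain of dense connective tissue, 13.5, 12.5 and 12.6 CPM in the same order. Col20a1 had medians of 7.81 CPM with celecoxib, 6.46 with rofecoxib and 6.80 in controls, and Col6a6, a further type VI chain, 6.26, 5.57 and 6.82 CPM. Col19a1 stood at 1.51, 1.63 and 2.13 CPM, and Col9a3 at 1.14, 1.24 and 1.49 CPM. Col10a1, the collagen of hypertrophic cartilage, lay under 1 CPM in every library. None of these 8 genes passed in any comparison by edgeR; Col6a6 for rofecoxib against control and Col20a1 for celecoxib against rofecoxib had an unadjusted p under 0.05.

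The proportions of partner chains overlapped between groups: per kb of transcript the ratio of Col1a1 to Col1a2 was 0.296 to 0.385 with celecoxib, 0.305 to 0.431 with rofecoxib and 0.320 to 0.413 in controls. The ratio of Col5a3 to Col5a2 was 0.0103 to 0.0242 with celecoxib, 0.0148 to 0.157 with rofecoxib and 0.0097 to 0.0356 in controls, and its rofecoxib maximum came from replicate 5.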
